A study of Homo sapiens with 60 samples.

Results

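The comparison described here is the water extract of Aconiti Lateralis Radix Preparata, the processed lateral root of aconite, at a high against a low dose. It rests on 6 of the 60 libraries of the series: 3 libraries of SW1783 cells kept for 24 h with 500 µg/mL of the extract and 3 kept for 24 h with 20 µg/mL. The libraries were chosen by their labels and not by any measured value. SW1783 is an established human astrocytoma line without any added gene or deletion in the labels, and the study exposed it to water extracts of herbs and herbal formulas at 3 doses each. A further 3 libraries hold the medium dose of 100 µg/mL. The 3 vehicle libraries received 0.1% DMSO for 24 h per the labels (the design text gives 2%), and for the extract wells the sources used here give no DMSO content. Bupleuri Radix at 500 and 20 µg/mL, with 3 libraries each, was the other extract in set 6 of the sample codes. The vehicle carries codes of another set, so its levels are printed beside the doses only for orientation, whereas the doses of the aconite extract share a set. The design text lowers the doses of extracts with an IC20 under 500 µg/mL, and the labels give the full 500 µg/mL for this one. One cell line was used, and the labels do not say whether libraries of a group came from separate cultures, so the p-values speak only of the spread from library to library, which may be technical.

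Aconite roots hold diester alkaloids such as aconitine, which keep voltage-gated sodium channels open, and the heating that makes the processed drug hydrolyses them to less toxic forms. Cells that meet misfolded protein in the endoplasmic reticulum, lack of amino acids or other stresses slow translation through phosphorylation of eIF2α, and the transcription factor ATF4 is then made and switches on amino acid synthesis, transport and tRNA charging. The unfolded protein response adds chaperones of the endoplasmic reticulum through ATF6 and XBP1, while NF-κB drives chemokine and cytokine genes. The composition of the extract was not among the data used here.

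Total expected counts, the estimated read counts per gene, were 18959098 to 24200565 in the 6 libraries compared, within the range of 18863852 to 36410893 over the series. Levels below are CPM, counts scaled to a common library size with TMM factors, and fold changes are log2 values, with an approximate standard error (SE) where printed. The SE is the size of the log2 change divided by the square root of the F value of edgeR's quasi-likelihood test. It can be too small for genes with few counts: for CXCL3 it was 0.242, and the standard error from DESeq2 was 0.426. Antisense genes and close copies such as HSPA1A and HSPA1B, SERPINB3 and SERPINB4, CXCL1, CXCL2 and CXCL3, and genes with many pseudogenes (FTH1, EEF1A1, GAPDH) are uncertain, since RSEM divides shared reads by estimate. Mitochondrial ribosomal RNA took 3.144% ± 0.164 (SD, n = 3) of the counts at the low dose and 5.927% ± 0.15 at the high dose, against 0.932% ± 0.025 in the vehicle. Between high and low dose, the number of genes called was 9930 without mitochondrially encoded genes and 9934 with them.

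The high dose changed a large part of the transcriptome against the low dose, mostly by less than 2-fold. Of 17190 genes tested, 9934 (57.8%) had an adjusted p under 0.05 in edgeR's quasi-likelihood test, which is what is meant by a gene that rose, fell or was called, with 5230 higher (30.4%) and 4704 lower (27.4%). A change of at least 2-fold was met by 1683 of them (9.79%), 791 higher (4.6%) and 892 lower (5.19%). In 5727 genes (33.3%) all 3 high-dose libraries lay above all 3 low-dose libraries, and in 5110 (29.7%) all lay below. The split of calls depended on the scaling: 52.6% were higher with TMM factors, and 40.0% with total counts alone, where 3999 were higher and 6001 lower. In libraries of whole cultures, fewer cells of a type and less of an RNA per cell cannot be told apart. The median change over all genes was 0.01 with TMM and -0.09 with total counts. Members of the gene lists below are to be read against the 30.4% of all genes that rose and the 27.4% that fell.

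**Figure D1:**
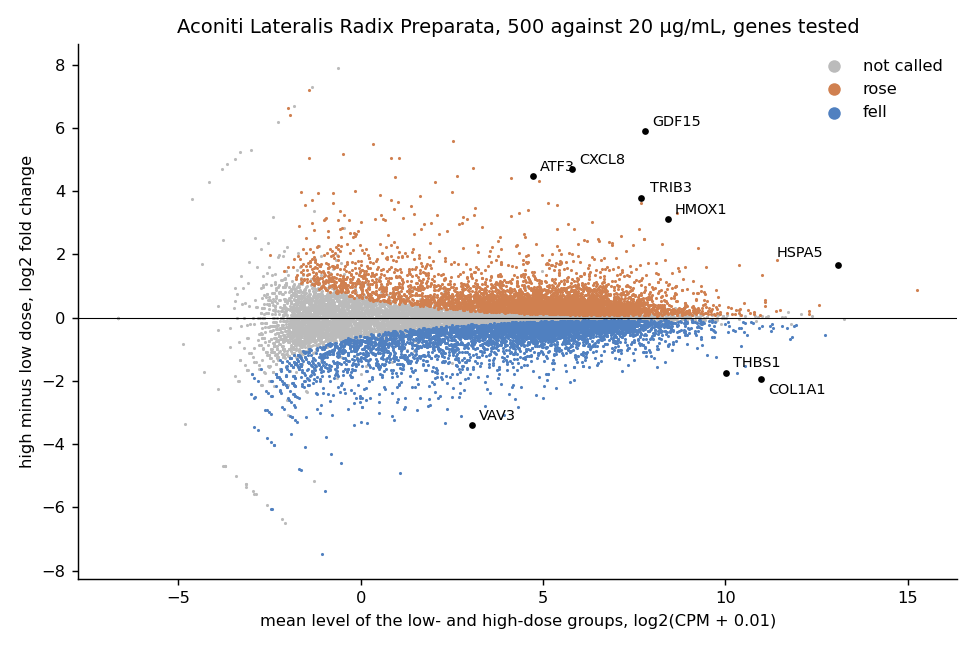
High minus low dose, log2 fold change (vertical), against mean level as log2(CPM + 0.01) (horizontal), 1 point per gene tested. Orange marks the 5230 genes that rose and blue the 4704 that fell at an adjusted p under 0.05. Genes named in the text are labelled, with GDF15 the highest of them at 5.89.

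GDF15 (chr19:18374731-18389176 on GRCh38, + strand), a secreted stress cytokine of the TGF-beta family, measured 7.07, 7.29 and 7.79 CPM in the low-dose libraries and 423, 444 and 444 CPM in the high-dose libraries, with 3.83 CPM in the vehicle. The groups were far apart, with a log2 change of 5.89 (SE 0.076, edgeR adjusted p = 1.2e-47), a 59.2-fold difference of means. GDF15 was the largest rise among genes with at least 5 CPM in the higher group, and 7 others among the 15 largest were ATF3, DDIT3, TRIB3, CXCL3, CXCL8, CXCL2 and IL1A, which are described with their groups below. The remaining 7 came from varied functions. NGFR, the p75 neurotrophin receptor, went from 1.52 to 32.9 CPM (4.43), and HKDC1, a hexokinase, from 2.87 to 56.8 CPM (4.31). CLDN1, a tight junction protein, rose from 5.32 to 64.7 CPM, and THBD, thrombomodulin of the anticoagulant pathway, from 6.56 to 77.2 CPM. KCP, a secreted modulator of BMP signalling, BEX4 and ATP6V0D2, a subunit of the proton pump of acidic compartments, started below 1 CPM. They reached 16.4, 7.8 and 5.79 CPM, with log2 changes of 4.74, 4.29 and 3.85.

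Nearly all genes of the ATF4 response rose. Of 23 genes listed as ATF4 and amino acid response genes, all were tested, 22 rose, 18 of them at least 2-fold, and 1 fell, with a median log2 change of 1.54. ATF4 itself had 125, 126 and 130 CPM at the low dose and 429, 402 and 419 CPM at the high dose, without overlap (1.71, SE 0.04, edgeR adjusted p = 8.71e-37). ATF3 (chr1:212565334-212620777, + strand), a stress-induced transcription factor, rose from 2.69, 2 and 2.1 to 48.4, 53 and 49.9 CPM (4.47, SE 0.118). DDIT3, which encodes CHOP, a factor tied to cell death under prolonged stress, read 32, 32 and 28.7 and then 388, 405 and 354 CPM (3.63, SE 0.081). All 3 transcription factors were thus higher in every high-dose library than in any low-dose library. TRIB3, a pseudokinase induced by ATF4 and CHOP, rose from 28.2, 27.1 and 28.2 to 386, 387 and 382 CPM (3.79, SE 0.053). ASNS, asparagine synthetase, rose from 66.5, 69.6 and 65.1 to 362, 375 and 376 CPM (2.47, SE 0.035, edgeR adjusted p = 4.04e-46). NUPR1, a small stress-induced chromatin protein, had a log2 change of 2.79 and SESN2, a sensor of leucine, one of 2.41. Serine and one-carbon enzymes (PSAT1 1.64, PHGDH 1.23, MTHFD2 1.54) and the amino acid transporter chains SLC7A11 (1.83), SLC7A5 (1.42) and SLC3A2 (1.39) rose with them. ATF5 was the member that fell, from 27.6 ± 0.618 to 20.4 ± 0.975 CPM (SD, n = 3; -0.44).

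Most enzymes that charge tRNAs rose. Of 20 cytosolic aminoacyl-tRNA synthetases, 14 rose, 6 of them at least 2-fold, and 4 fell, with a median log2 change of 0.72. The largest rises were glycine's GARS1, from 234 to 707 CPM (1.59), and alanine's AARS1, from 226 to 626 CPM (1.47). CARS1 (1.14), YARS1 (1.13), SARS1 (1.02) and WARS1 (1.01) followed, for cysteine, tyrosine, serine and tryptophan. Among those that fell, HARS1 had a log2 change of -0.26, FARSB one of -0.10 and RARS1 one of -0.10, for histidine, phenylalanine and arginine. Without low-dose replicate 3, or with no filter on low counts, 2 synthetases fell and not 4.

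Chaperones of the endoplasmic reticulum rose in every case while most of a list of mainly cytosolic heat shock genes fell. All 19 listed genes of the endoplasmic reticulum were called higher, 4 of them at least 2-fold, with a median log2 change of 0.56. HSPA5 (chr9:125234853-125241330, - strand), the main Hsp70 of the endoplasmic reticulum, also called BiP, had 4112, 4196 and 4110.1 CPM at the low dose and 13404, 13539 and 12765 CPM at the high dose, with 3651 CPM in the vehicle. It was the largest rise in CPM among nuclear protein-coding genes, at a log2 change of 1.68 (SE 0.037, edgeR adjusted p = 9.44e-38). HERPUD1, which serves degradation of proteins from the endoplasmic reticulum, rose from 101, 110 and 99.3 to 513, 521 and 507 CPM (2.31). DNAJB9, a co-chaperone of HSPA5, went from 36.7 to 133 CPM (1.85), and XBP1, the transcription factor that is spliced under this stress, from 113 to 245 CPM (1.11). Abundant members rose less: HSP90B1 by 0.56, CALR by 0.51 and CANX by 0.21 on the log2 scale. In that list of 15 genes, which also holds the mitochondrial chaperonins HSPD1 and HSPE1, 2 rose and 11 fell, with a median of -0.45. HSPA8, the constitutive Hsp70, fell from 1143, 1190.3 and 1282 to 509, 495 and 522 CPM (-1.24, SE 0.039). HSPA1A, the inducible Hsp70, fell from 124, 138 and 139 to 49.9, 46.9 and 49.5 CPM (-1.45, SE 0.054), and its near-identical copy HSPA1B had -1.05. HSPB1 (-1.03), DNAJA1 (-1.0) and, of the mitochondrial pair, HSPE1 (-0.67) fell too, and HSPD1 was not called (-0.01). The members that rose were HSF1, the factor that drives this group, at 0.60, and HSPA4L at 0.17. With total counts alone as scaling 1 member rose and not 2, as it was without high-dose replicate 2 or low-dose replicate 1.

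The promoters of these groups were searched in the 250 bases before the RefSeq start on GRCh38.p14, on both strands. The search shows which of them carry the letters of elements known from these 2 responses. Whether the factors that bind such elements were active was not tested. The endoplasmic reticulum stress element was searched as CCAAT and CCACG with 9 bases between them. It was found in 6 of 18 promoters of the endoplasmic reticulum list (33.3%), against 0.0806% of all 27305 promoters. The genes were HSPA5, HSP90B1, CALR, CANX, CRELD2 and XBP1, and their changes ran from 0.21 to 1.68, so genes with a match spanned most of the list's range. The amino acid response element was searched as TGATGNAA and found in 3 of 18 promoters of the ATF4 list (16.7%), ASNS, CHAC1 and ATF3, and in 2 of 16 of the synthetases (12.5%), AARS1 and IARS1, against 3.19% of all promoters. A match is a description of the letters and not evidence of a bound site. The windows below begin 110 or 230 bases before the start and run 5′ to 3′ along the gene, with the match in capitals (in HSP90B1 and CHAC1 it lies on the other strand).
HSPA5 (chr9:125241374-125241453, - strand): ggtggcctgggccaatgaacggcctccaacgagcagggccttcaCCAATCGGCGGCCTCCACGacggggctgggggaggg
HSP90B1 (chr12:103930300-103930379, + strand): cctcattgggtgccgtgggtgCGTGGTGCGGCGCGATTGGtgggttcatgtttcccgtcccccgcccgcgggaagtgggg
XBP1 (chr22:28800600-28800679, - strand): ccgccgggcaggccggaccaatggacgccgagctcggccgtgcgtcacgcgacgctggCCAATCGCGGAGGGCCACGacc
ASNS (chr7:97872459-97872518, - strand): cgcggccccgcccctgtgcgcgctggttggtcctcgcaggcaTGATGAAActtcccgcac
CHAC1 (chr15:40953241-40953300, + strand): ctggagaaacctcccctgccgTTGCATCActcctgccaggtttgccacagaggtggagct
ATF3 (chr1:212565177-212565236, + strand): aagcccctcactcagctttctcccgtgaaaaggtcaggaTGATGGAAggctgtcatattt

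NF-κB genes and the CXC chemokines that attract neutrophils rose, although not all chemokines did. Of 16 tested NF-κB subunits and feedback genes, 13 rose, 6 at least 2-fold, and 1 fell, with a median log2 change of 0.70. The inducible subunit RELB went from 17, 17.5 and 15.2 to 55.3, 52.1 and 54.4 CPM (1.70, SE 0.061), and NFKB2 had a log2 change of 1.34. Among feedback genes, NFKBIZ (1.75), BIRC3 (1.64), TRAF1 (1.33) and TNFAIP3, the deubiquitinase A20 (1.16), at least doubled. NFKB1 (0.10) and REL (-0.02) were not called, and BCL3, a nuclear inhibitor-like cofactor, fell from 58.6 to 27.9 CPM (-1.07).

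CXCL8 (chr4:73740506-73743716, + strand), interleukin 8, measured 4.38, 3.24 and 4.92 CPM at the low dose and 109, 114 and 100.3 CPM at the high dose against 4.96 in the vehicle, a log2 change of 4.69 (SE 0.09, edgeR adjusted p = 2.81e-40). CXCL3 read 0.33, 0.15 and 0.205 and then 11.1, 11.9 and 11.2 CPM (5.60, SE 0.242). CXCL2 read 0.424, 0.549 and 0.615 and then 10.9, 12.6 and 12.2 CPM (4.49, SE 0.239). Each of them was below 5 CPM in every low-dose library, and every high-dose library stood clear above. In the list of 15 chemokines 10 were tested, 5 rose and 2 fell, and the other members that rose were CXCL1, at 2.71 CPM at the high dose (3.87), and CXCL5, at 4.7 CPM (2.63), both named after their values were seen since they lie under 5 CPM. CXCL12, a lymphocyte and stem cell attractant, fell from 19.4, 18.3 and 17.4 to 3.51, 3.81 and 4.08 CPM (-2.27, SE 0.098). CCL2, the main monocyte attractant, fell from 15.3 to 10.3 CPM (-0.58).

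The κB site, whose letters vary, was searched in the same windows only as the exact form GGAATTTCC. This form was found in 8 of 11 chemokine promoters (72.7%), against 0.428% of all promoters, in 4 of 15 of the NF-κB list (26.7%), in 1 of 13 of the inflammatory effectors (7.69%, ICAM1) and in 0 of 14 of the cytokines. Other forms were not searched, so a promoter without a match may still hold a κB site, and the shares depend on the form chosen. CXCL1, CXCL2 and CXCL3 are close copies, so their matches are not independent. The shares are a description and not a test of enrichment. In the 5 chemokines that rose it begins 77 to 91 bases before the start. CXCL6, CXCL10 and CXCL11 hold it as well, 89, 176 and 75 bases before the start, but failed the filter on low counts. CXCL10 had 0 counts over the 3 low-dose and 0 over the 3 high-dose libraries. In the NF-κB list the match was in NFKB1, REL, NFKBIA and NFKBIZ, of which NFKB1 and REL were not called. The windows of the 5 genes follow, with the match in capitals, and CXCL1, CXCL2 and CXCL3 can be seen to share letters on both sides of it.
CXCL1 (chr4:73869283-73869342, + strand): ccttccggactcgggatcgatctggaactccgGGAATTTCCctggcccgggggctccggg
CXCL2 (chr4:74099246-74099305, - strand): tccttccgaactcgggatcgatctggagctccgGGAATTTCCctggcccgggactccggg
CXCL3 (chr4:74038740-74038799, - strand): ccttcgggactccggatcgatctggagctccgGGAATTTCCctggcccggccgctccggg
CXCL5 (chr4:73998728-73998787, - strand): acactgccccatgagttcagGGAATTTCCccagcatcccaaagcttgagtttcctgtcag
CXCL8 (chr4:73740459-73740518, + strand): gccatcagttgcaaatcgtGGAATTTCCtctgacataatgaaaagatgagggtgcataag

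Cytokines of the acute response rose too, while receptors and adaptors for such signals moved in both directions. Of 17 listed cytokines 15 were tested, 10 rose, 9 at least 2-fold, and 4 fell, with a median of 1.43 (log2). IL6 had 3.54, 3.69 and 5.28 CPM at the low dose and 42.1, 47 and 43.2 CPM at the high dose (3.41, SE 0.118, edgeR adjusted p = 1.46e-29). LIF, of the same family, went from 22.8, 20.9 and 20.8 to 125, 116 and 114 CPM (2.46, SE 0.061). IL1A went from 0.681 to 10.6 CPM (3.97), IL32 from 5.33 to 14.3 (1.43) and IL1B from 3.64 to 9.17 (1.33). TNF failed the filter, with 0 counts in all low-dose and 15 in all high-dose libraries. IL11, which belongs to the IL6 family as well, fell from 81 to 41.6 CPM (-0.97), and TNFSF15 (-1.41), TNFSF10 (-1.74) and CSF1 (-0.19) fell besides. Of 19 inflammatory effectors tested, 12 rose and 2 fell, led by PTX3, a soluble pattern recognition protein (40.4 to 240.4 CPM, 2.57), the adhesion molecule ICAM1 (1.54), the kinase IRAK2 (1.23) and mitochondrial SOD2 (1.15). Among 14 Toll-like and interleukin-1 receptors and adaptors, 4 rose and 6 fell (median -0.21). IL1R1 (-0.52), TNFRSF1A (-0.52) and the adaptor MYD88 (-0.57) were lower and the adaptor TICAM1 higher (0.67). The 4 that rose became 1 with total counts alone and 2 with the compared groups alone or without high-dose replicate 3.

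Interferon-stimulated genes gave a mixed picture. Of 21, 9 rose and 4 fell, with IRF1 (1.40), IFIT2 (1.39), STAT2 (0.95) and IRF7 (0.94) among the former and IFI44L (-0.47), IFITM1 (-0.41), OAS2 (-0.50) and IFI44 (-0.34) the latter. ISG15 (-0.12) was not called. With total counts alone 7 fell. Antigen presentation genes moved by small steps in 1 direction: 9 of 12 rose and 0 fell, from HLA-B at 0.53 to PSMB8 at 0.19, with a median of 0.28 against 0.01 for all genes.

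**Figure D2:**
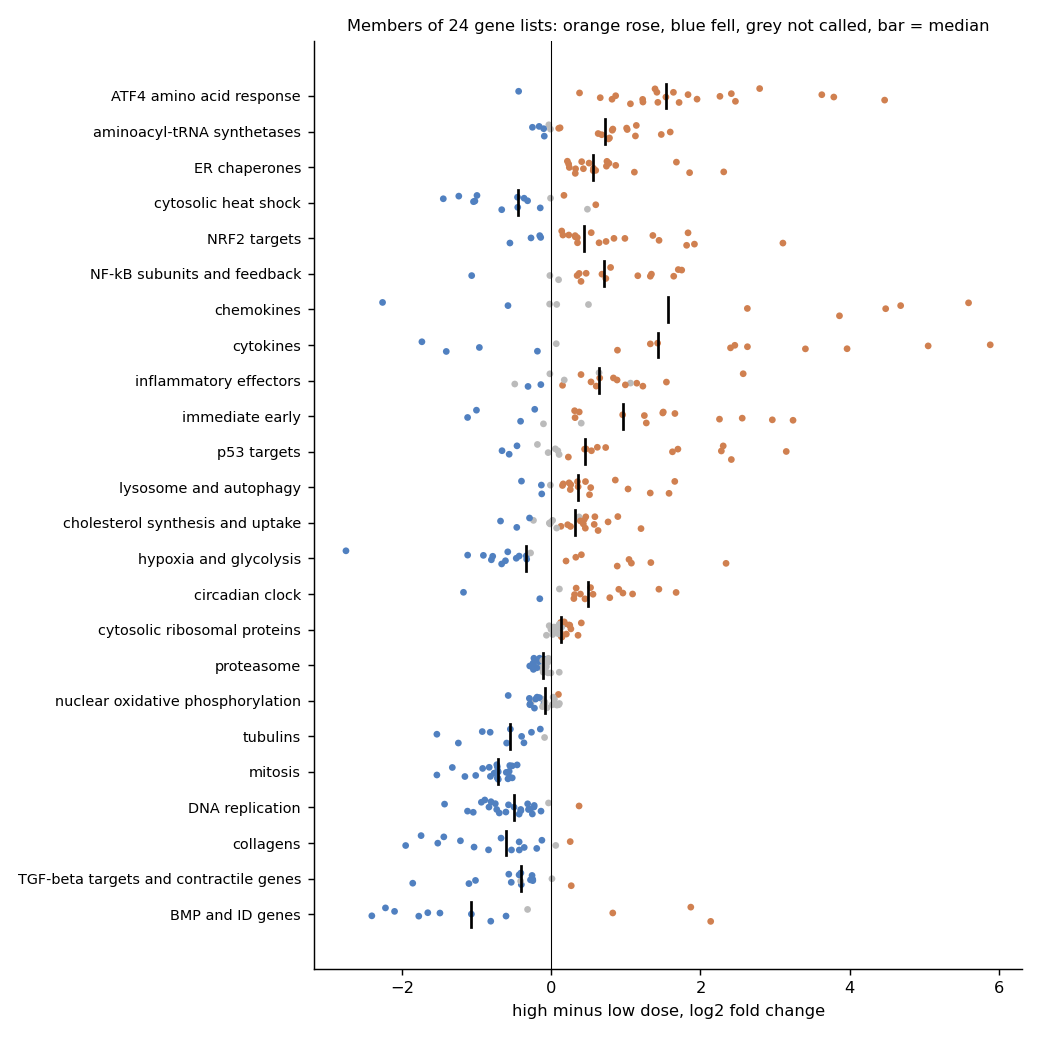
High minus low dose, log2 fold change (horizontal), for each tested member of 24 of the gene lists (rows). Orange points rose, blue points fell, grey points were not called and the black bar is the list's median. ATF4 genes have the median of 1.54 and BMP and ID genes that of -1.07.

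Antioxidant, iron storage and lysosomal genes were higher. Among 22 targets of NRF2, a transcription factor activated by oxidants and electrophiles, 18 rose and 4 fell, with a median of 0.44. HMOX1, which degrades haem, went from 72.6, 72 and 69.1 to 595, 597 and 648 CPM, a log2 change of 3.11 (SE 0.044, edgeR adjusted p = 4.75e-46). GCLC, which starts glutathione synthesis, went from 33.9 to 128 CPM (1.92). The ferritin chains were among the largest rises in CPM. FTH1 went from 1292, 1188 and 1173 to 4275, 4223 and 4345 CPM (1.81) and FTL from 1175, 1085 and 1188 to 2769, 2913 and 3173 CPM (1.36), with no overlap in either. NQO1 (0.64) and TXNRD1 (0.73), classical members, rose by less, and EPHX1 (-0.14), PRDX1 (-0.16), ABCC1 (-0.27) and AKR1B10 (-0.56) fell. Without high-dose replicate 1, or without low-dose replicate 2, 2 of them fell and not 4. Of 19 lysosome and autophagy genes, 15 rose and 3 fell (median 0.35). SQSTM1, the autophagy receptor p62, went from 642, 645 and 620.1 to 1944, 2013 and 2049 CPM (1.66). WIPI1 (1.58) and MAP1LC3B (1.33), of the autophagosome, at least doubled, as did the cholesterol exporter of lysosomes NPC1 (1.03). TFEB, the factor that drives lysosomal genes, fell (-0.40), with ATP6V0D1 (-0.13) and GLA (-0.14).

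Growth signalling, p53 and clock genes included rises of similar size. In the immediate early list 13 of 19 rose, 9 at least 2-fold, and 4 fell (median 0.96). The phosphatase DUSP5, which restrains ERK, went from 11.8, 13.4 and 10.0 to 91, 95.6 and 89.1 CPM (2.96), and IER3 (3.24), KLF4 (2.56) and MAFF (2.26) rose too. FOS itself fell (-1.01), as did EGR3 (-1.13), FOSL2 (-0.41) and JUNB (-0.22). PHLDA1, a pleckstrin-homology protein and one of the 8 largest rises in CPM, went from 215 to 993 CPM (2.21). MYC, listed with ribosome biogenesis, went from 50.6 to 139 CPM (1.46), while that list as a whole had 9 of 17 higher and 6 lower with a median of 0.10.

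Of 20 p53 targets 12 rose and 3 fell. TNFRSF10B, the death receptor DR5, went from 59.1, 60.6 and 61.1 to 293, 300.3 and 284 CPM (2.28, SE 0.038), and GADD45A had 2.31. CDKN1A, the cell cycle inhibitor p21, went from 20.7, 19.4 and 18.8 to 58.4, 61.2 and 61.7 CPM (1.62, SE 0.065). TNFRSF10B and GADD45A are also known targets of CHOP or ATF4. MDM2 (0.62) rose by less, and ZMAT3 (-0.66), TP53I3 (-0.57) and PHLDA3 (-0.46) fell. Of 16 circadian clock genes 13 rose and 2 fell (median 0.49), led by NPAS2 (1.67) and NR1D1, the receptor REV-ERBα (42.2 to 115 CPM, 1.44). The members that fell were HLF (-1.18) and CLOCK (-0.16).

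**Figure D3:**
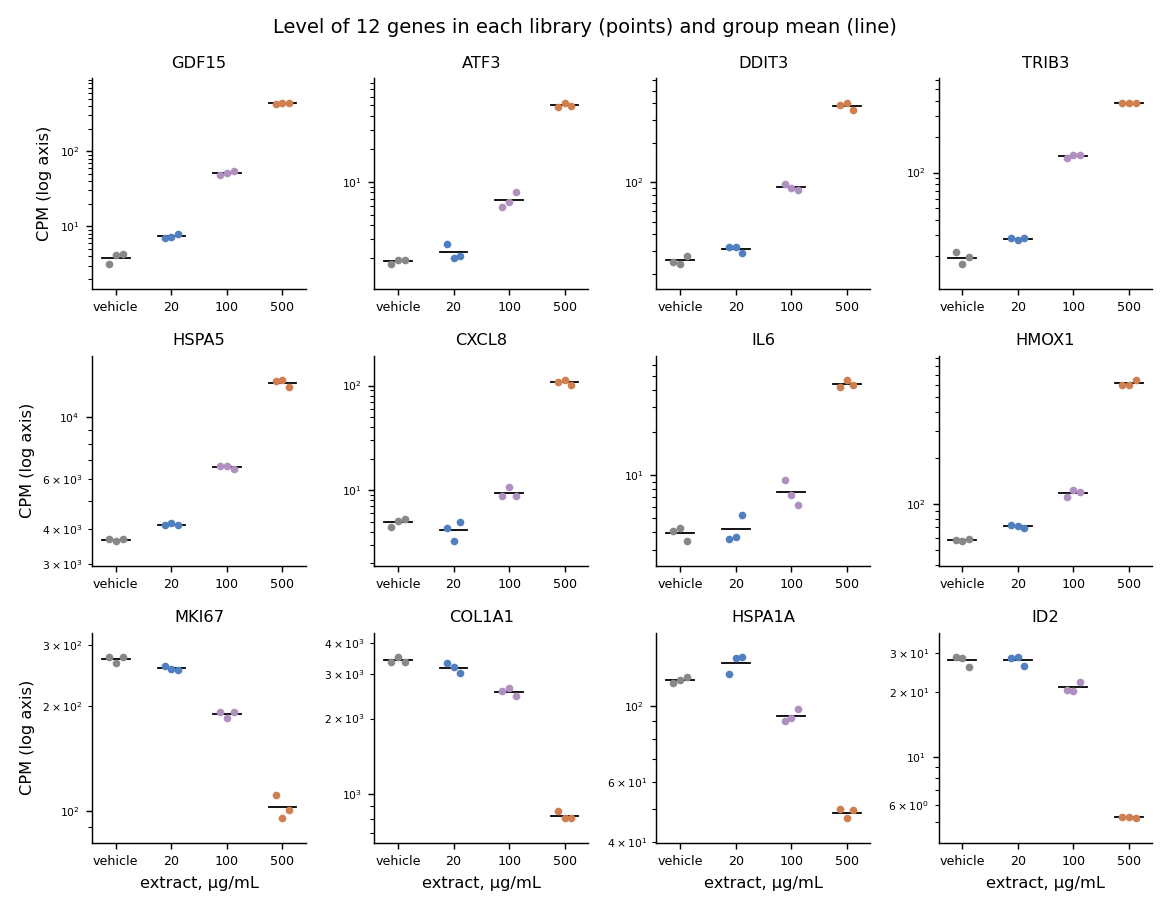
Level of 12 genes in CPM (vertical, log axis) in each of 3 libraries (points) and as the group mean (line) for the vehicle and for 20, 100 and 500 µg/mL of the extract (horizontal). GDF15 climbs from 7.38 to 51.2 and 437 CPM over the doses, and MKI67, COL1A1, HSPA1A and ID2 are lowest at 500 µg/mL.

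Fibrillar collagens and targets of TGF-beta and BMP signalling were lower. Of 16 collagen chains 14 fell, 6 at least 2-fold, and 1 rose, with a median of -0.61. COL1A1 (chr17:50183289-50201632, - strand), the main chain of type I collagen, read 3332, 3201 and 3040.1 CPM at the low dose and 862, 804 and 802 CPM at the high dose, with 3406 CPM in the vehicle. It fell by 1.96 on the log2 scale (SE 0.045, edgeR adjusted p = 6.29e-37), and its partner chain COL1A2 changed by -1.75. COL5A1 went from 2198 to 764 CPM (-1.53) and COL3A1 from 55 to 20.3 CPM (-1.44). The basement membrane chains COL4A1 (-0.37) and COL4A2 (-0.20) fell by less, and COL6A2 was the chain that rose (0.25). In the wider matrix list of 20, 13 fell and 1, the crosslinking enzyme LOX, rose (0.36). THBS1, thrombospondin 1, fell from 1643, 1617 and 1533 to 518, 460.4 and 459.5 CPM (-1.74, SE 0.04), while fibronectin, FN1, was not called (5285 ± 148 and 5421 ± 81.6 CPM, SD, n = 3).

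Of 15 TGF-beta targets and contractile genes 12 fell and 1 rose (median -0.41). SMAD6, an inhibitor of BMP signalling, went from 18.6, 17.1 and 16.7 to 4.6, 4.75 and 5.01 CPM (-1.86), and ACTA2, smooth muscle actin, had -1.11. SKIL, a repressor of SMADs, rose (0.27). Of 13 BMP and ID genes 9 fell, 7 at least 2-fold, and 3 rose (median -1.07). ID2, an inhibitor of differentiation factors, went from 28.6, 28.9 and 26.3 to 5.29, 5.29 and 5.2 CPM (-2.41, SE 0.09), and ID1 (-1.07), ID3 (-1.50) and ID4 (-1.66) fell with it. The ligand BMP4 fell from 9.56 to 2.01 CPM (-2.23), whereas GREM1, a secreted BMP antagonist, rose from 16 to 70.4 CPM (2.14). BMP6 (1.87) and BMP2 (0.82) rose too, both staying under 3 CPM.

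The largest falls on the log2 scale were in signalling, transcription and matrix genes. VAV3 (chr1:107571160-107965144, - strand), a guanine nucleotide exchange factor, went from 15.3, 14.5 and 15.7 to 1.61, 1.44 and 1.3 CPM (-3.40, SE 0.124, edgeR adjusted p = 1.13e-28), a 10.5-fold difference. CCN4, a matricellular Wnt target, went from 12.1 to 1.39 CPM (-3.10), and RAB7B, a GTPase of late endosomes, from 27.1 to 3.24 CPM (-3.07). The growth factor TGFB3 (-2.81), the Notch glycosyltransferase LFNG (-2.78), the DNA demethylation enzyme TET1 (-2.56) and the heparan sulphate enzyme NDST3 (-2.55) were also among the 15. DIO2, the selenoenzyme that activates thyroid hormone, went from 54.5 to 9.5 CPM (-2.53). Also among them were FAM13C (-3.32), SERPINB3 (-2.93), RASL11A (-2.90), EGLN3 (-2.76), LYPD1 (-2.58) and TCAF2 (-2.51).

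Cell division genes were lower with few exceptions. All 23 mitosis genes fell, 4 at least 2-fold, with a median of -0.72, and in all 23 the high-dose libraries lay below the low-dose ones. MKI67, the proliferation marker Ki-67, read 262, 257 and 254 and then 112, 95.4 and 101 CPM (-1.33, SE 0.059, edgeR adjusted p = 3.8e-25). KIF20A, a kinesin of cytokinesis, went from 100.2, 102 and 102 to 36.5, 33.7 and 34.6 CPM (-1.54), and AURKA (-1.16) and CCNA2 (-1.02) at least halved. The smallest fall was PRC1's (-0.46). Of 25 DNA replication genes 23 fell, and the ribonucleotide reductase subunit RRM2 went from 194, 194 and 195 to 89.2, 87.2 and 90.8 CPM (-1.13). CCNE2 (-1.43), MCM3 (-1.05) and PCNA (-0.84) fell, while CDC6, which loads the helicase, rose from 87.3 ± 2.58 to 113 ± 4.15 CPM (SD, n = 3; 0.37). Histone genes expressed with replication had 7 of 8 tested members lower and 0 higher, H2AC6 at -1.05 for example. Tubulins fell in 10 of 11 cases and rose in 0, from TUBB3 at -1.54 to TUBG1 at -0.15, and ACTB, cytoplasmic actin, fell from 8018 ± 161 to 5509.5 ± 157 CPM (SD, n = 3; -0.54).

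Glycolysis and hypoxia genes divided. Of 21, 12 fell and 8 rose (median -0.34). LDHA, lactate dehydrogenase, went from 1743, 1798 and 1859.9 to 973, 954 and 943 CPM (-0.91), with PGK1 (-0.62), ENO1 (-0.43) and GAPDH (-0.34) lower as well. EGLN3 (-2.76) and PFKFB4 (-1.12), hypoxia-induced regulators, fell most. NDRG1, induced by hypoxia and other stresses, rose from 38.8 to 197 CPM (2.34), and ADM (1.33), HK2 (1.07), SLC2A3 (1.04) and VEGFA (0.88), a known ATF4 target, rose too.

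Sterol genes rose modestly. Of 24 genes of cholesterol synthesis and uptake 14 rose and 3 fell (median 0.31). INSIG1, which retains the sterol sensor, went from 125 to 288 CPM (1.20). EBP (-0.47) and LSS (-0.29) of the synthesis pathway were among those that fell. Of 10 LXR targets 6 rose and 1, LPCAT3, fell (-0.42), or 2 fell with total counts alone or without low-dose replicate 3. The cholesterol exporter ABCA1 went from 68.3, 67.3 and 63.6 to 371, 374 and 361 CPM (2.47, SE 0.042). Fatty acid synthesis genes had 5 of 10 higher, SCD at 0.96 for example, and 3 lower.

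Genes of sodium and calcium handling are of interest because aconite alkaloids act on sodium channels. Of 26 listed genes 18 were tested, 5 rose and 6 fell, near the shares of all genes, with a median of -0.12. ATP1B1, the β1 subunit of the sodium pump, went from 113, 111 and 116 to 39.2, 38.6 and 37.8 CPM (-1.56, SE 0.041). SCN8A, a voltage-gated sodium channel, rose from 4.94 ± 0.203 to 9.3 ± 0.639 CPM (SD, n = 3; 0.91), and SCN3A, another, fell from 13.9 ± 0.598 to 8.25 ± 0.547 CPM (-0.75). The calcium pump ATP2B1 rose (0.93), and SCN9A (-0.17) and CACNA1C (-0.01) were not called. With total counts alone 3 members rose.

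Housekeeping complexes changed by little. Of 26 cytosolic ribosomal protein genes 13 rose and 0 fell with a median of 0.12, but with total counts alone 4 rose and 2 fell. EEF1A1, the elongation factor, rose from 5225 ± 132 to 6912 ± 25.8 CPM (SD, n = 3; 0.40). Of 21 proteasome genes 9 fell and 0 rose (median -0.12); 19 fell with total counts alone and 16 with the compared groups alone or with the libraries of set 6 alone. Nuclear oxidative phosphorylation genes had 9 of 25 lower and 1 higher (median -0.09), and 15 lower with total counts alone or 14 with set 6 alone. The member that rose was not called with no filter, with total counts alone, with the compared groups alone, or without high-dose replicate 1 or 3 or low-dose replicate 2 or 3.

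The astrocyte identity of the line is only partly visible in its RNA. GFAP had 5 counts in all low-dose and 4 in all high-dose libraries, AQP4 had 0 and 0, and S100B, ALDH1L1 and FABP7 failed the filter as well. VIM rose slightly (4673 to 5368 CPM, 0.20), whereas of the 8 tested markers 6 fell, led by the glutamate transporter SLC1A3 (28.4, 27.1 and 31.4 to 6.33, 6.05 and 6.45 CPM, -2.21) and NES, nestin (-1.49). The summed level of the 8 was 7619.5 to 7805 CPM over the low-dose and 7821 to 7881 CPM over the high-dose libraries. VIM made up most of this sum, so the sum does not show the 6 falls.

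Some markers of other cell types were at or near 0 and others were not. In the oligodendrocyte list MOG, MAG, OLIG1 and SOX10 had 0 counts, and the 4 of 8 tested summed to 140.5 to 157 CPM at the low and 118 to 126 at the high dose. In the epithelial list EPCAM, CDH1 and KRT5 had 1 to 4 counts per group. Of its 7 tested members 4 fell, KRT18 from 194 to 78.3 CPM (-1.31) for example, and 1, KRT17, rose (1.91), with sums of 837 to 911 CPM at the low and 565 to 598 at the high dose. Of the microglial and macrophage list AIF1 and TREM2 had at most 1 count per group, and 3 of 8 were tested, summing to 167 to 168.5 and 196 to 209.7 CPM. PTPRC, a leukocyte gene, fell from 12.7 to 4.21 CPM (-1.62) and CD68, a lysosomal protein of macrophages, rose (0.38). The sum thus rose although 2 of these 3 members fell. In the neuronal list 5 of 9 were tested, 3 fell (SNAP25 -1.77) and 1, MAP2, rose (0.97), with sums of 137 to 151 and 61.9 to 62.9 CPM. Of 7 endothelial genes 3 were tested, 0 rose and 1, TEK, fell (-0.94), with sums of 28.3 to 33.7 and 31.1 to 34.4 CPM. The part of such cells in the results was not tested.

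The medium dose shows at which concentration each group had moved. Against the low dose, 3507 genes were called at 100 µg/mL (20.4%), 1874 higher (10.9%) and 1633 lower (9.5%). The split was 53.4% higher with TMM factors and 20.6% with total counts alone. This comparison and the high dose's share the 3 low-dose libraries, so the values are given side by side without a test of their likeness. ATF4 genes had a median log2 change of 1.05 at the medium and 1.54 at the high dose, with 21 of 23 higher and 0 lower at the medium dose. CHAC1, which degrades glutathione, had overlapping ranges at both higher doses, with 30.3, 28.5 and 31.5 CPM at the medium and 31.6, 30.1 and 33.7 CPM at the high dose, against 7.31, 5.54 and 7.02 CPM at the low dose. ASNS read 204, 209 and 214 CPM at the medium dose and TRIB3 133, 141 and 140 CPM.

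At the medium dose, where 10.9% of all genes rose, chemokines had 4 of 10 members higher and 2 lower, with a median of 0.23 against 1.56 at the high dose, and CXCL8 read 8.73, 10.8 and 8.76 CPM at the medium dose. Cytokines had 7 of 15 higher and 3 lower, with medians of 0.47 and then 1.43. NF-κB genes had 8 of 16 higher and 1 lower (0.17 and then 0.70), inflammatory effectors 4 of 19 and 2 (0.16 and then 0.64), and NRF2 targets 9 of 22 and 1 (0.07 and then 0.44). HMOX1 read 110.2, 122 and 119 CPM at the medium dose. The collagens had a median of -0.15 and then -0.61, and mitosis genes -0.19 and then -0.72. Some genes moved 1 way at the medium dose and another at the high dose. INSIG1 fell at the medium dose (-0.15, edgeR adjusted p = 0.00237), where 10 of 24 sterol genes fell and 0 rose. ACTA2 rose by 0.17 at the medium dose (edgeR adjusted p = 0.0367) and TAGLN by 0.32. TGF-beta targets and contractile genes thus had 7 members higher and 3 lower at the medium dose, against 1 and 12 at the high dose.

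**Figure D4:**
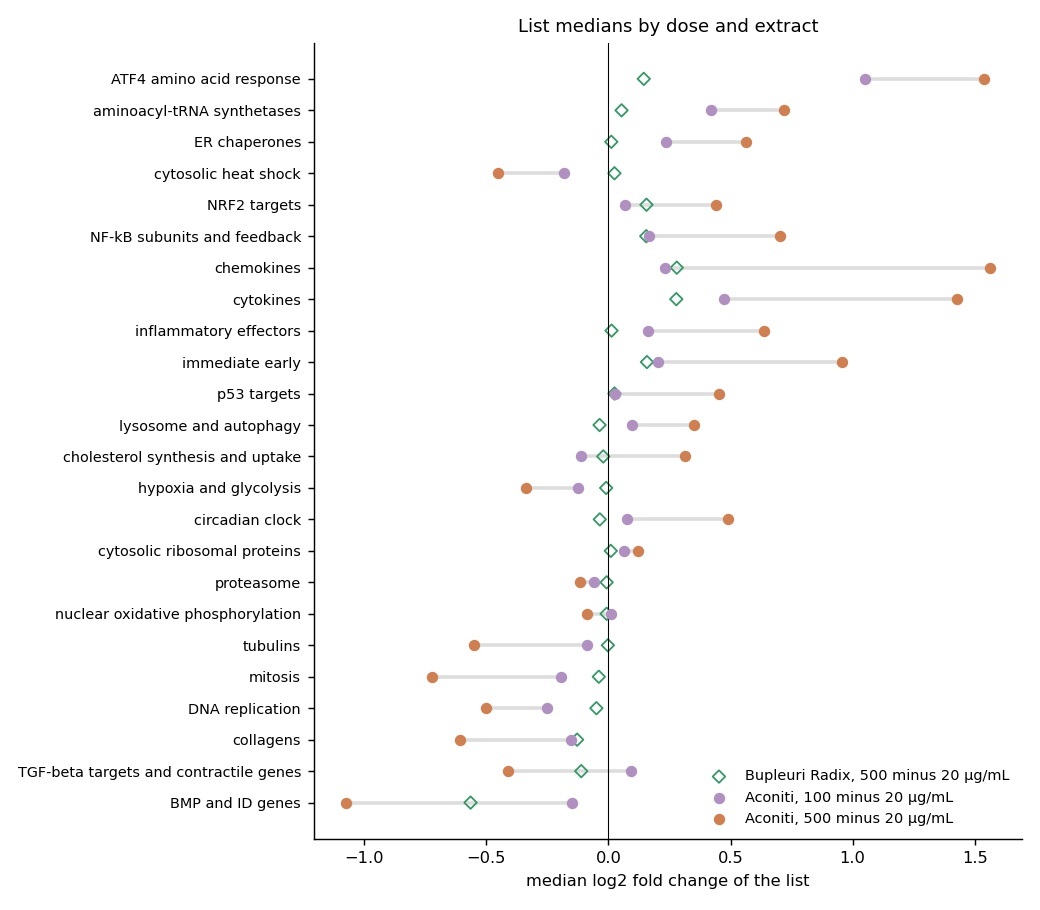
Median log2 fold change (horizontal) of 24 gene lists (rows): aconite extract 500 minus 20 µg/mL (orange) and 100 minus 20 µg/mL (purple), and Bupleuri Radix 500 minus 20 µg/mL (open green diamonds). The ATF4 list is at 1.05 and 1.54 for the aconite doses and at 0.15 for Bupleuri Radix, and the chemokines are at 0.23, 1.56 and 0.28.

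The response differed from that of Bupleuri Radix, the root of another medicinal plant, over the same pair of doses. The difference of the high-minus-low changes of both extracts was tested as an interaction, and 7561 genes were called (44%), with 3937 higher for aconite (22.9%) and 3624 lower (21.1%). With total counts alone 7674 were called and 37.5% were higher, against 52.1% with TMM factors. In the ATF4 list 22 of 23 members responded more strongly upwards in aconite, and the Bupleuri median was 0.15. All 19 endoplasmic reticulum genes had a higher response, against a Bupleuri median of 0.01, and all 23 mitosis genes a lower one, against -0.04. For GDF15, Bupleuri Radix gave 4.41, 3.78 and 4.23 CPM at the low and 5.86, 4.81 and 6.63 CPM at the high dose. This smaller rise was also called (0.48, edgeR adjusted p = 0.0137), and the responses differed by 5.41 (SE 0.166, edgeR adjusted p = 6.08e-31). CXCL8 rose with Bupleuri Radix as well, from 4.5, 4.34 and 4.32 to 9.59, 9.49 and 9.24 CPM (1.11), and the responses differed by 3.58 (SE 0.166). ID2 and ID3 fell with both: the Bupleuri change was -0.94 for ID2 and -0.92 for ID3, and the aconite response lay -1.47 and -0.58 from it.

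In 80 genes with a symbol and at least 5 CPM (0.465% of all those tested) both dose contrasts were called with opposite signs, and so was their difference. How many genes were called in both extracts was not counted. The share thus does not say how often the directions of shared calls disagreed. THBS1 rose with Bupleuri Radix, from 1761, 1681 and 1620 to 2012, 2022 and 1934 CPM, and fell with aconite, a difference of -1.98 (SE 0.056, edgeR adjusted p = 2.32e-32). HAS3, a hyaluronan synthase, rose from 30.2, 31.1 and 27.7 to 49.3, 49.3 and 46 CPM with Bupleuri Radix and fell from 24.1, 25.1 and 21 to 11.9, 10.6 and 10.3 CPM with aconite (-1.81). CYP1B1, a cytochrome P450 induced by the aryl hydrocarbon receptor, did the same, from 155 to 190 CPM and from 129.9 to 70.2 CPM (-1.18). CRISPLD2, a secreted protein (-1.45), and SLC4A4, a sodium bicarbonate cotransporter (-1.38), completed the 5 largest in this direction among the 80. In the other direction, the netrin receptor UNC5B went from 5.28, 5.34 and 3.74 to 13.5, 13 and 15.3 CPM with aconite and from 5.33, 5.65 and 4.64 to 3.45, 2.95 and 3.34 CPM with Bupleuri Radix (2.22, SE 0.171). SLC20A1, a phosphate transporter, differed by 1.74, the axon guidance protein DRAXIN by 1.65 and the MAP kinase phosphatase DUSP10 by 1.56.

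Mitochondrial ribosomal RNA was higher in every aconite library than in the vehicle, and highest at the medium dose. These genes, except for MT-RNR1, were singled out after their values were seen. MT-RNR1 (chrM:648-1601, + strand), the 12S RNA, read 4561, 4093 and 4000.4 CPM at the low, 14639, 15749.5 and 15015 at the medium and 13608, 13314 and 13782 at the high dose. In Bupleuri Radix it read 754, 740.3 and 776 and 584, 608 and 649 CPM at the low and high dose, and 673, 663 and 705 CPM in the vehicle. The medium dose thus lay above the high dose, and the lowest aconite library lay above every Bupleuri and vehicle library given. MT-RNR2, the 16S RNA, read 27774, 69279.8 and 50944 CPM over the doses against 8589 in the vehicle. Both rose from low to high dose (MT-RNR1 1.69, MT-RNR2 0.88), and the responses differed from Bupleuri Radix by 1.99 and 1.15. The 13 mitochondrially encoded protein genes did not share this: 0 rose and 2 fell from low to high dose, 4 fell with total counts alone, and 5 fell with the compared groups alone, with set 6 alone or with no filter on low counts, where 3 rose. Their summed share was 3.82% ± 0.398 (SD, n = 3) of counts at the low, 2.828% ± 0.058 at the medium and 3.263% ± 0.053 at the high dose, against 4.206% ± 0.109 in the vehicle.

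**Figure D5:**
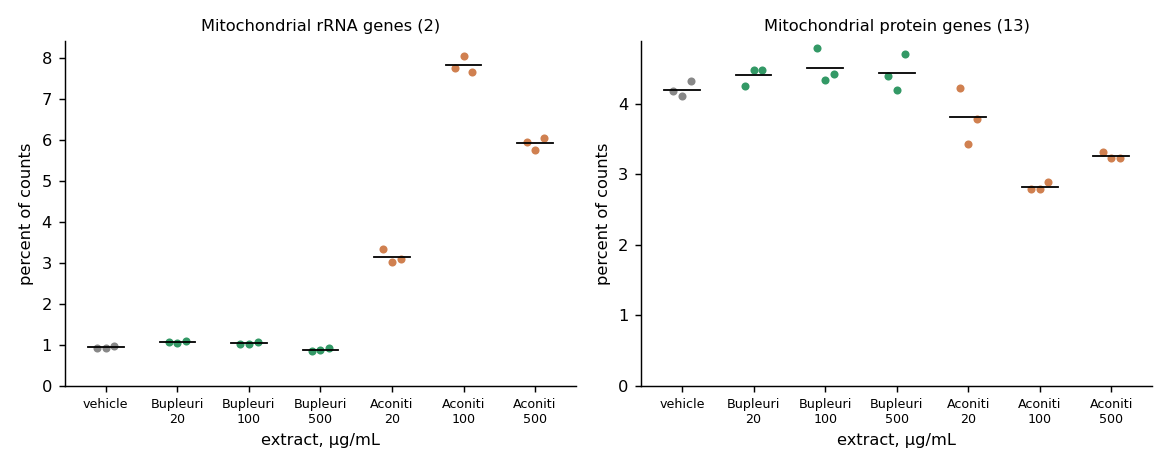
Percent of counts in the 2 mitochondrial ribosomal RNA genes (left) and the 13 mitochondrially encoded protein genes (right) in each library (points) with group means (lines), for vehicle, Bupleuri Radix and the aconite extract at 20, 100 and 500 µg/mL. The ribosomal RNA share is 3.144%, 7.826% and 5.927% over the aconite doses and 0.932% in the vehicle.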

How the data were processed

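Total RNA of SW1783 cells was made into directional mRNA libraries and sequenced from both ends, per the labels' protocols. RSEM 1.3.3, STAR 2.7.3a, Trim Galore 0.6.5 and FastQC 0.11.9 are named with GRCh38 per the submitters' processing notes. The strand setting and the annotation were not stated there. The authors deposited expected counts per gene, as RSEM estimates them, for 60675 genes in 60 libraries, of which 9.22% of values were not whole. They were rounded before testing. Symbols were found for 42022 identifiers, and coordinates come from GENCODE 29. Replicate pairs of the aconite groups differed by a chi-square of 2.09 to 3.77 per degree of freedom over genes with counts of 20 or more. Each library was taken as a replicate. Such a spread exceeds counting noise but cannot tell separate cultures from libraries of the same culture.

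The 57 libraries of the 19 groups with 3 libraries were fitted together in edgeR 4.0.16 (R 4.3.3; filterByExpr by group, TMM, glmQLFit, glmQLFTest, Benjamini-Hochberg), and the 3 Bojungikgi-tang libraries, 1 per dose, were left out. DESeq2 1.42.0 was an alternative, beside other scalings, filters, sets of libraries, a replicate block and leaving out each library. The procedure was tested on simulated data in which 200 genes differed between high and low dose, far fewer than were called here. That test does not cover a change as broad as this, nor its effect on the scaling. Genes named had a symbol, an adjusted p under 0.05, at least 5 CPM in the higher group and no overlap between groups: the 15 largest rises and falls in log2, the 8 largest in CPM among nuclear protein-coding genes, and up to 6 called members of each of the 49 gene lists with those against the majority. Classical members and the ends of a list's range were named besides, after their values were seen. Some genes that the rule names are not reported here. For the difference between extracts, the 5 largest in each direction were named among genes called with opposite signs in both extracts, so larger differences in other genes fall outside that choice. The comparison, the members and the lists were chosen with earlier results of these data known. Promoter sequences come from RefSeq, GRCh38.p14.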

Additional observations from a re-analysis of the deposited data

Results flagged for a closer look

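The high-minus-low change differed between the aconite extract and Bupleuri Radix in 7561 genes by edgeR's interaction test. Of the 10 genes named for opposite directions in both extracts, UNC5B (2.22), MT-RNR1 (1.99), SLC20A1 (1.74), DRAXIN (1.65) and DUSP10 (1.56) had the higher log2 response in aconite. THBS1 (-1.98), HAS3 (-1.81), CRISPLD2 (-1.45), SLC4A4 (-1.38) and CYP1B1 (-1.18) had the lower one. The edgeR adjusted p ranged from 2.32e-32 for THBS1 to 1.17e-11 for DRAXIN.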

How the results depend on the processing

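The 56 results followed under the alternatives were the largest changes in log2 or CPM and the genes named for opposite directions in both extracts. All 843 of their values kept their direction and their side of the threshold. These genes were picked as called and large, so this outcome was likely beforehand. Genes named only as list members were not followed gene by gene. The number of genes called between high and low dose was 9432 with DESeq2, 9738 with no filter on low counts, 9793 with the compared groups alone and 10158 with the libraries of set 6 alone. It ranged from 9204 to 9483 when each of 6 libraries was left out, and the count of at least 2-fold changes from 1660 to 1740. Asking for 1.5-fold in place of 2-fold gave 3654 genes, and 4-fold gave 339. The difference from Bupleuri Radix ranged from 7079 to 7316 genes and the medium dose from 2692 to 3037 when a library was left out. With the replicate block, 10094 genes were called between high and low dose, 1689 at least 2-fold, 3731 at the medium dose and 7732 for the difference between extracts. Same-numbered low- and high-dose libraries deviated together with correlations of only 0.044, 0.025 and 0.02, so the numbers were not taken to pair samples, although each library correlated best with its own number. Total counts alone moved the split of calls towards falls, as given beside the counts. Genes such as GFAP and CXCL10 were under the filter at this depth, and nothing is shown of them.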

Other observations

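Other gene lists are given by their counts, beside 30.4% of all genes that rose and 27.4% that fell. Among 11 tested EGF receptor ligands and regulators 6 rose and 2 fell, with the feedback inhibitors SPRY2 (1.71) and SPRY4 (1.55) and the ligand HBEGF (0.93) higher. The 2 that fell, EGF and ERBB2, became 0 without high-dose replicate 2 or low-dose replicate 2, and 1 without high-dose replicate 1 or low-dose replicate 3. Of 13 insulin and FOXO genes 9 rose and 3 fell, led by IRS2, an adaptor of the insulin receptor, from 26.5, 27.9 and 27.1 to 149.9, 147 and 162 CPM (2.50, SE 0.045), while IRS1 fell (-0.54). YAP targets had 8 of 12 higher, with DLC1 at 1.60 and CCN1 at 0.99, and 4 lower. Glucocorticoid targets had 4 higher and 4 lower of 9, with a median of -0.04. The receptor AHR rose (0.73). In the list of its targets 3 of 7 were higher, and the 2 that were lower were CYP1B1 (-0.89) and AHRR (-0.57). MT2A, a metallothionein, rose (0.65), with 2 of 6 in its list higher and 0 lower, a share near that of all genes. Selenoproteins had 5 of 13 higher, SELENOS at 1.04, and 3 lower (median 0.09), and serpins of clade B 2 of 6 higher and 4 lower. TXNIP rose (0.64), with 3 of its list of 4 higher and 1 lower.

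MT-ND1 and MT-ND2, the mitochondrial genes next to the 16S RNA (chrM:1671-3229), were singled out after their values were seen. MT-ND1 (chrM:3307-4262) read 5234, 3529 and 3998 CPM in the low-dose libraries, 2723, 2909 and 2847 at the medium and 2648, 2636 and 2748 at the high dose, against 2472, 2311 and 2803 in the vehicle. MT-ND2 (chrM:4470-5511) read 5392, 3507 and 4145 CPM at the low dose, 2682, 2716 and 2738 at the medium and 2759.6, 2733 and 3079 at the high dose, against 2690, 2536 and 2812 in the vehicle. The low dose was thus above both higher doses and the vehicle, with the widest spread between its libraries. The other 11 mitochondrially encoded protein genes were not called between high and low dose.

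Of the oligodendrocyte markers that passed the filter, OLIG2, the lineage factor, rose from 0.141, 0.0998 and 0.256 to 1.38, 1.21 and 1.07 CPM (2.84, SE 0.415, edgeR adjusted p = 6.22e-08) and MBP from 7.55 to 12.8 CPM (0.76), while CNP fell (-0.42). CSF2, a cytokine, rose from 0.189, 0.0499 and 0.0512 to 2.93, 4.26 and 3.11 CPM (5.06, SE 0.464). OLIG2 and CSF2 lie under 5 CPM in each group and were named after their values were seen.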
